A study of Rattus norvegicus with 144 samples.

Results

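Long annotated transcripts, those with an Ensembl length of 5000 bases or more, were followed in 3 regions of the rat brain, namely the prefrontal cortex (PFC), the dorsal part of the hippocampus (HIP), and the dorsal part of the striatum (STR). A long transcript counted as a member in a region when, in every one of the 4 strain and drug groups there, 6 or more of the 12 rats had an FPKM over 1. FPKM is the number of sequenced fragments per kilobase of transcript, scaled to the number of mapped fragments, so that levels can be compared between transcripts of different lengths. The rule kept 544 transcripts of 500 genes (PFC), 535 of 489 genes (HIP), and 537 of 492 genes (STR). These were 29.0%, 28.9%, and 29.2% of the 1875, 1854, and 1841 annotated transcripts of that length, and the other 1331, 1319, and 1304 did not pass. They stand among 39085, 39106, and 39078 rows that matched the annotation exactly. The shorter transcripts that passed the same FPKM rule, 7597 (PFC), 7954 (HIP), and 8000 (STR), served for comparison. Because FPKM chose the members, the levels and spreads of FPKM are given as a description, with no test.

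Long mRNAs are a feature of brain tissue, where many genes for ion channels, cytoskeletal linkers, and synaptic scaffolds have long coding regions or long 3' ends and are spliced into several isoforms. Reverse transcription and the selection of polyadenylated RNA make long mRNAs sensitive to breaks in the RNA, and software that divides reads between overlapping isoforms must choose between models that share most of their exons. The tables name transcripts by Ensembl identifier only, without gene symbols, so the roles of the single genes are not given here.

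The 144 samples came from adult male rats, with 12 rats in each group and the 3 regions taken from each brain. F344_Sal and F344_Nic were F344 rats, the background strain, given saline or nicotine. HIV_Sal and HIV_Nic were HIV-1 transgenic (HIV-1Tg) rats given the same, which carry an HIV-1 genome without gag and pol, driven by the viral long terminal repeats, in the F344 background, so that no virus replicates. Nicotine was injected under the skin at 0.25 mg/ml and 1 ml/kg, 2 times a day for 17 days, after which the regions were punched from slices as whole tissue. Fewer cells of a type and less RNA per cell cannot be told apart in such samples. The labels give no age, and the rats had taken part in an earlier behavioural study. Relative depth, read from the ratio of base coverage to FPKM, ranged from 2.08 to 3.56 (PFC), 1.64 to 2.49 (HIP), and 1.64 to 3.52 (STR), and read numbers were not given in the sources used here.

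Of the 655 transcripts that were members anywhere, 428 were members in all 3 regions (65.3%), 105 in a pair of regions, and 122 in 1 region, namely 43 (PFC), 38 (HIP), and 41 (STR). Of the 9631 shorter transcripts that passed anywhere, 6022 passed in all 3 regions (62.5%). The PFC and HIP shared 465 members, which were 85.5% of those in the PFC and 86.9% of those in the HIP. The median length was 6139 bases (PFC), 6196 (HIP), and 6114 (STR). The longest had 18966 bases, and 37, 38, and 38 had 10000 or more. At the limits of the rule, the last 3 members of the PFC had 1.0402, 1.05, and 1.06 FPKM in the sixth highest rat of their lowest group, and the next 3 long transcripts had 1.00, 0.996, and 0.991. In length, the shortest 3 members of each region had 5001 bases, and the next transcripts below had 4992, 4990, and 4988 in the PFC.

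Before any group was compared, each library was set against the median library of each region, over the 428 long transcripts and over 6022 shorter ones. All 48 PFC libraries were nearest to the PFC. Of the 48 HIP libraries, 2 were nearest to the STR, and of the 48 STR libraries, 2 were nearest to the HIP, on both sets of transcripts. They were the HIP and STR libraries labelled F344_Sal rat 10 and HIV_Sal rat 6. The HIP library labelled F344_Sal rat 10 differed from the median HIP library by 0.511 on the log2 scale (the median over the long transcripts of the absolute difference) and from the median STR library by 0.329. The HIP library labelled HIV_Sal rat 6 was 0.481 from the HIP and 0.337 from the STR. The STR libraries with the same 2 labels were 0.493 and 0.549 from the STR but 0.318 and 0.365 from the HIP.

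The single long transcripts that follow differ widely between regions and were chosen after the data were seen, so they are no separate support. ENSRNOT00000038207 (7364 bases) had an FPKM of 15.9 to 37.9, with a median of 27.5, in the other 46 HIP libraries, but 6.37 and 5.89 in the libraries labelled F344_Sal rat 10 and HIV_Sal rat 6. In the STR it had 1.54 to 7.40, with a median of 4.73, in the other 46 libraries, but 32.0 and 34.1 in the libraries with these labels. These 4 libraries lay outside the range of their own region and within that of the other. ENSRNOT00000021162 (5784 bases) had 0.707 to 3.20 FPKM (median 2.41) in the other HIP libraries and 7.81 and 8.96 in these, and 2.02 to 12.9 (median 8.40) in the other STR libraries and 2.00 and 2.24 in these. The last of these, STR HIV_Sal rat 6, lay within the range of the other STR libraries. The libraries were kept under their labels. Counts of calls in the HIP and STR are given also without them, and the levels, zeros, and isoform values are given with them.

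**Figure D1:**
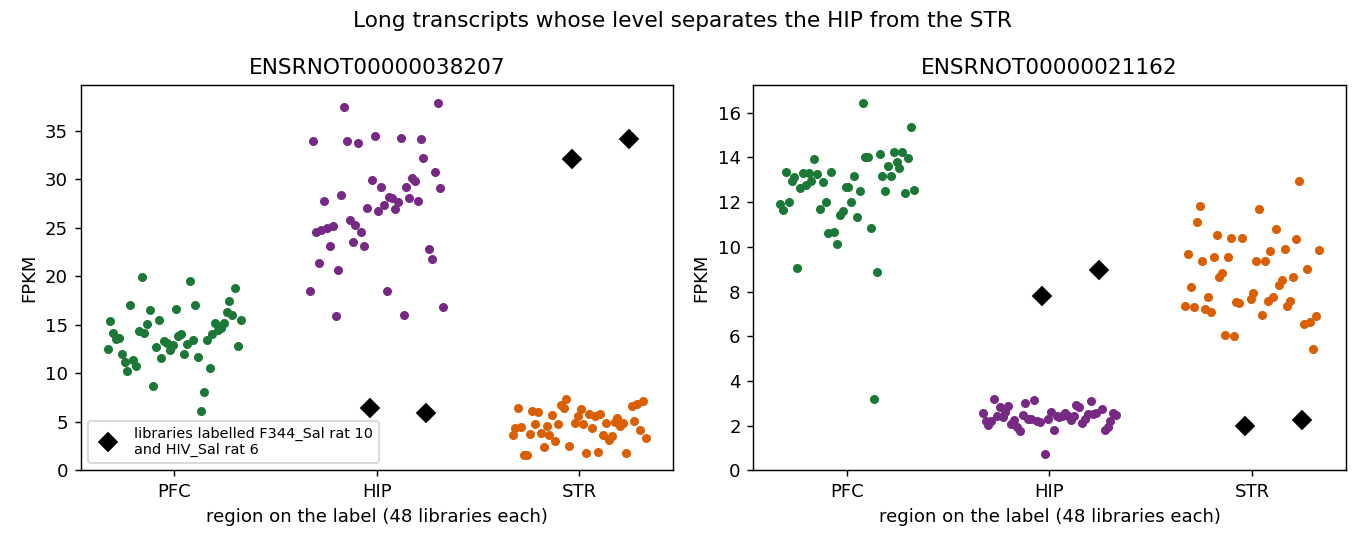
FPKM (y axis) of 2 long transcripts in each of the 48 libraries of the PFC, HIP, and STR (x axis, the region on the label), with 1 point per library. Black diamonds mark the HIP and STR libraries labelled F344_Sal rat 10 and HIV_Sal rat 6, which for ENSRNOT00000038207 sit at 6.37 and 5.89 in the HIP and at 32.0 and 34.1 in the STR.

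Long transcripts were present at lower levels per length than shorter ones. The median of the mean FPKM was 5.67 (PFC), 5.42 (HIP), and 5.79 (STR), beside 7.47, 7.01, and 7.01 for shorter transcripts. A mean above 20 FPKM was found for 68, 67, and 69 long transcripts (12.5%, 12.5%, and 12.8%), against 21.0%, 19.99%, and 19.96% of the shorter ones. Long transcripts took 3.55%, 3.41%, and 3.25% of the summed FPKM. Weighted by length, they held 15.5%, 15.5%, and 14.6% of the bases of all annotated transcripts that passed the rule.

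The most abundant long transcript of the PFC was ENSRNOT00000008946 (6343 bases), with a mean of 171 FPKM over the 48 rats. The medians of F344_Sal, F344_Nic, HIV_Sal, and HIV_Nic rats were 182, 188, 184, and 178, with single rats from 39.7 to 224 in HIV_Sal and from 53.5 to 206 in HIV_Nic. In the HIP, ENSRNOT00000060787 (7868 bases) was highest, with a mean of 144 FPKM and group medians of 150, 146, 168, and 160 in the same order, and in 1 HIV_Sal rat it was listed at 0. In the STR, ENSRNOT00000019320 (10110 bases) was highest, with a mean of 161 FPKM and single rats from 81.6 to 212. In each case the ranges of the 4 groups overlapped.

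Long transcripts varied more between rats of 1 group than shorter ones, by the median. The median SD of log2(FPKM + 0.1) within groups was 1.43 (PFC), 1.35 (HIP), and 1.30 (STR), against 1.02, 0.933, and 0.940 for shorter transcripts. Without the libraries nearest to another region it was 1.34 in the HIP and 1.31 in the STR, against 0.913 and 0.920. The SD was above 2 for 30.1%, 29.5%, and 29.4% of the long and 19.5%, 19.0%, and 19.1% of the shorter transcripts. It was under 0.3 for 2.02%, 5.05%, and 5.03% of the long and 8.23%, 13.7%, and 12.3% of the shorter ones. Within classes of mean log2 level, the median SD was higher for long transcripts in 20 of 21 classes over the 3 regions. Among transcripts with a mean log2 level from 3 to 4, the median SD was 1.185 for 82 long and 0.764 for 1351 shorter transcripts (PFC), 1.096 and 0.620 (HIP), and 1.07 and 0.646 (STR). The exception was the class from 4 to 5 in the STR, with 0.518 for 34 long and 0.529 for 893 shorter transcripts. The linear coefficient of variation differed less, with medians of 0.463, 0.468, and 0.469 for long and 0.398, 0.381, and 0.394 for shorter transcripts.

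The steadiest and the most variable long transcripts lay far apart. ENSRNOT00000045357 (5309 bases) had the smallest SD in the PFC, 0.14, and lay between 15.5 and 27.4 FPKM in all 48 rats, with group medians of 23.5, 23.2, 24.6, and 21.9. ENSRNOT00000029191 (6702 bases) had 0.14 in the HIP, with single rats from 13.3 to 23.1 FPKM, and ENSRNOT00000000345 (5954 bases) had 0.15 in the STR, from 10.4 to 17.5 FPKM. At the other end, ENSRNOT00000043627 (5686 bases) had an SD of 4.45 in the PFC, where it was listed at 0 in 11 rats and reached 191 FPKM in another. ENSRNOT00000012983 (6371 bases) had 4.53 in the HIP and ENSRNOT00000059496 (6331 bases) 4.3995 in the STR, each listed at 0 in 16 rats. Group medians of ENSRNOT00000059496 were 51.5, 37.0, 37.1, and 43.3 FPKM, and each group also held rats at 0.

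Values of 0 went with the spread. An FPKM of 0.01 or less was found in 9.40% (PFC), 9.25% (HIP), and 8.77% (STR) of the values of long transcripts, against 6.21%, 6.10%, and 6.13% for shorter transcripts. Only 2.15%, 2.09%, and 2.13% of the values of long transcripts lay above that and at or under 1 FPKM, so a rat usually had either a clear level or none. No such value occurred for 121, 167, and 165 long transcripts (22.2%, 31.2%, and 30.7%), against 45.8%, 49.3%, and 49.2% of the shorter ones. An exact 0 in these tables can be a failed estimate, and such values are called here listed at 0. The rule itself limits them to 6 rats in a group.

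When a long transcript was listed at 0, its gene usually was not. The FPKM of a gene was summed over its annotated and alternatively spliced rows. For the 271, 250, and 250 long transcripts at 0 in at least 3 rats, the gene sum in those rats was, in the median, 97.7%, 100.1%, and 99.1% of that in the other rats. It fell under 10% of it for 12, 12, and 8 transcripts. On gene sums, the median SD within groups was 0.355, 0.283, and 0.307 for the genes of long transcripts and 0.436, 0.378, and 0.417 for those of shorter ones. The order of the spread thus turned when isoforms were added up.

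Long transcripts also had more isoforms to be divided between. Only 30.7%, 29.9%, and 29.4% came from genes with a single annotated transcript in the tables, against 64.9%, 65.6%, and 66.0% of shorter transcripts, and the mean number of annotated isoforms was 2.34, 2.36, and 2.38 against 1.56, 1.55, and 1.54. The median number of alternatively spliced rows matched to a long transcript was 8, 9, and 7, and that for a shorter one was 4 in each region. Rows lying within introns were matched to 55.0%, 52.2%, and 52.3% of long and 41.2%, 37.1%, and 39.6% of shorter transcripts. Within the long transcripts, those from single-isoform genes had a median SD of 0.988, 0.929, and 0.960, and those from genes with several isoforms 1.63, 1.60, and 1.54. Long transcripts of single-isoform genes still varied more than shorter ones of such genes, at 0.824, 0.713, and 0.74999.

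The longest member, ENSRNOT00000056549 (18966 bases), was 1 of 8 annotated isoforms of its gene. Its mean FPKM was 4.11 (PFC), 4.97 (HIP), and 5.25 (STR), and it was listed at 0 in 11, 8, and 10 of the 48 rats. Its SD was 2.43, 2.27, and 2.49, whereas that of the gene sum was 0.33, 0.27, and 0.20. Over all members, length within the long class went with small differences in spread. The median SD from 5000 to 6000 bases, from 6000 to 8000, and at 8000 and above was 1.31, 1.39, and 1.57 (PFC), 1.199, 1.41, and 1.33 (HIP), and 1.24, 1.34, and 1.41 (STR).

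In 1 gene, chosen after its values were seen, a long isoform was higher where the other was at 0. The gene ENSRNOG00000007290 had 2 members of nearly equal length, ENSRNOT00000058143 (5109 bases) and ENSRNOT00000009964 (5110 bases). In the HIP, ENSRNOT00000058143 was listed at 0 in 9 rats, in which ENSRNOT00000009964 had 88.6 to 284 FPKM with a median of 255. In the other 39 rats ENSRNOT00000009964 had 0 to 207 FPKM with a median of 78.4. The gene sum had a median of 255 in the former rats and 252 in the latter. In the STR the same transcript was also at 0 in 9 rats, and ENSRNOT00000009964 had 168 to 281 FPKM (median 248) there against 0 to 230 (median 50.7) in the others. Such a shift was not general. There were 43, 46, and 44 genes with more than 1 long member, in the order PFC, HIP, and STR, and where 1 member was at 0 in at least 3 rats, its partner had a higher median in those rats in 34 of 72, 39 of 68, and 41 of 68 cases.

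**Figure D2:**
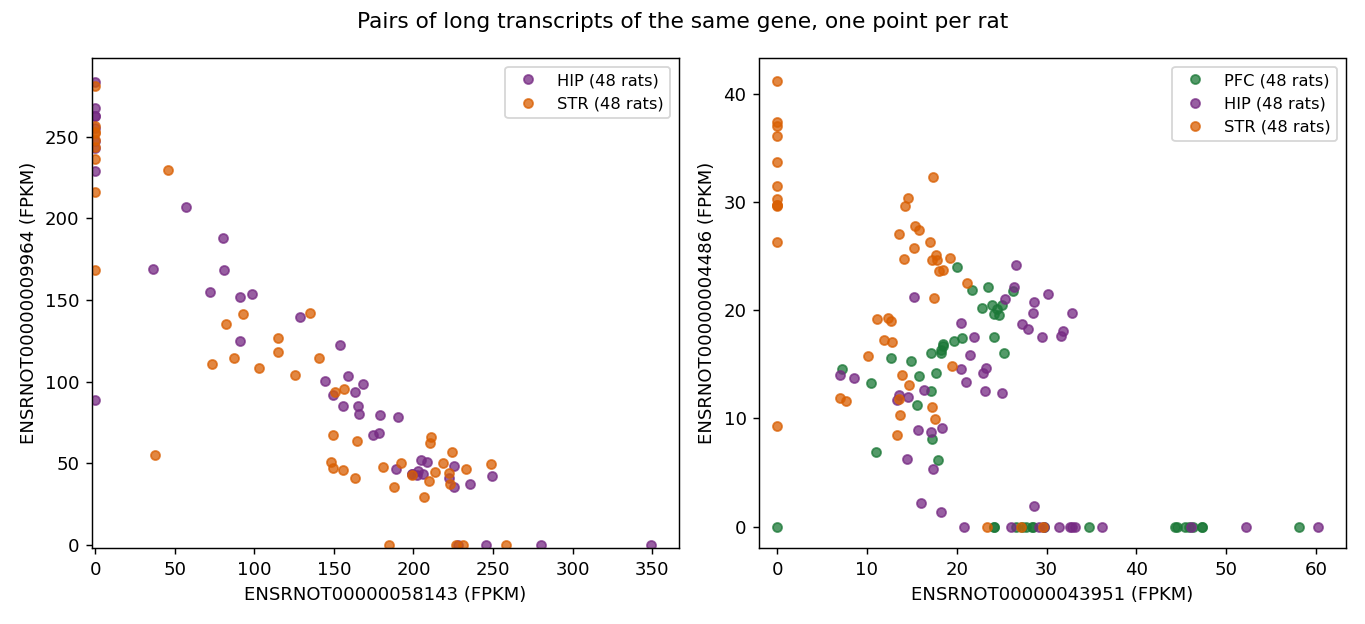
FPKM of 1 long transcript (x axis) against FPKM of another of the same gene (y axis), with 1 point per rat and colours for regions. At left, ENSRNOT00000009964 had a higher median in rats in which ENSRNOT00000058143 was at 0 (255 in HIP and 248 in STR rats), with ranges that overlapped those of the other rats. At right, STR rats lie higher for ENSRNOT00000004486 and PFC and HIP rats higher for ENSRNOT00000043951, with medians of 24.2 against 13.6 and 12.5, and of 13.8 against 24.003 and 25.2.

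A few libraries held fewer long transcripts than all others. In each library, the median log2(FPKM + 0.1) of long transcripts was set against that of shorter ones. The difference had a median of -0.30 (PFC), -0.27 (HIP), and -0.26 (STR) over the 48 libraries of a region. In the PFC it was -5.88 in HIV_Nic rat 10 and -1.84 in HIV_Nic rat 11, and next came F344_Sal rat 4 at -0.87. In HIV_Nic rat 10, 51.1% of the long transcripts were listed at 0 against 15.2% of the shorter ones, and in rat 11 23.9% against 8.40%. In the HIP, HIV_Nic rat 4 had -1.54, with 23.2% at 0, and F344_Sal rats 8 and 3 had -0.93 and -0.70. In the STR no library was below -0.58. Group medians ran from -0.36 to -0.28 (PFC), -0.32 to -0.22 (HIP), and -0.32 to -0.21 (STR), and in each region F344_Sal was the lowest.

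**Figure D3:**
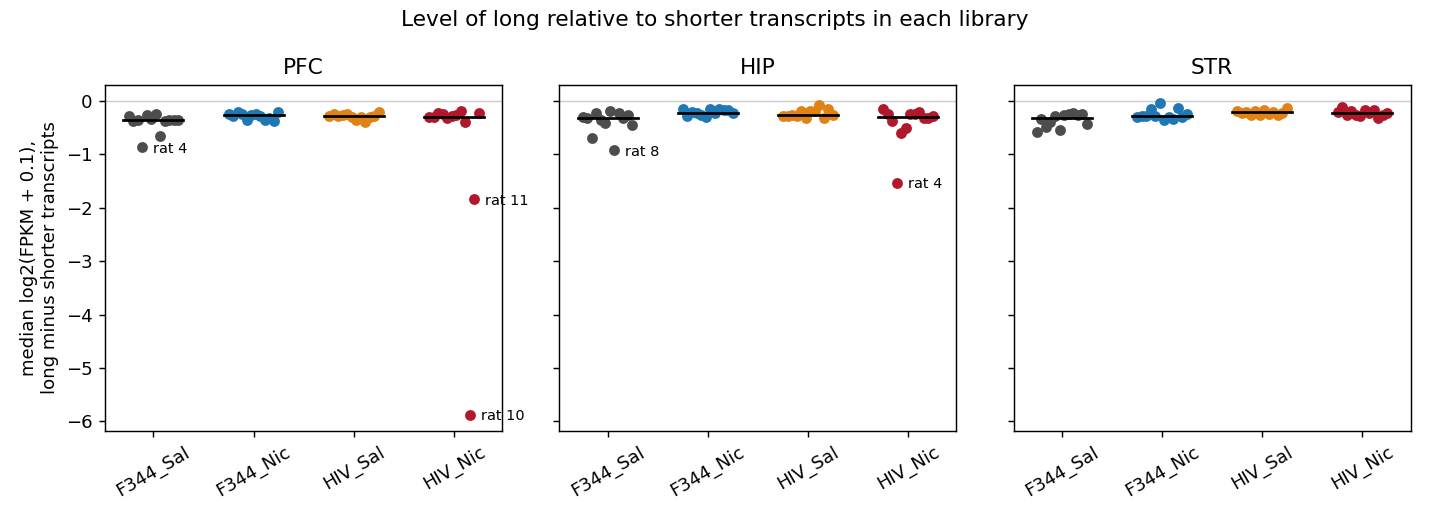
Median log2(FPKM + 0.1) of long transcripts minus that of shorter transcripts (y axis) in each library, by group (x axis) and region, with black lines at the group medians. HIV_Nic rats 10 and 11 of the PFC lie at -5.88 and -1.84 and HIV_Nic rat 4 of the HIP at -1.54, while the other libraries lie at -0.93 or above.

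The deficit of these libraries grew steadily with length and did not begin at 5000 bases. In PFC HIV_Nic rat 10, the median deviation of log2(FPKM + 0.1) from the median of the region was 0.91 for transcripts under 1000 bases, -0.41 from 2000 to 3000, -1.97 from 4000 to 5000, -3.51 from 5000 to 6000, and -5.15 at 8000 and above. Listed at 0 in this rat were 8.15% of the transcripts under 1000 bases and 61.6% of those at 8000 and above. In HIV_Nic rat 11 the deviation went from 0.64 to -1.84 between these classes, and in HIP HIV_Nic rat 4 from 0.52 to -1.94. The relative depth of PFC HIV_Nic rats 10 and 11 was 2.87 in both, and that of HIP HIV_Nic rat 4 was 2.10, within the ranges of their regions. RNA integrity per sample was not given in the sources used here, and its part in this pattern was not tested.

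**Figure D4:**
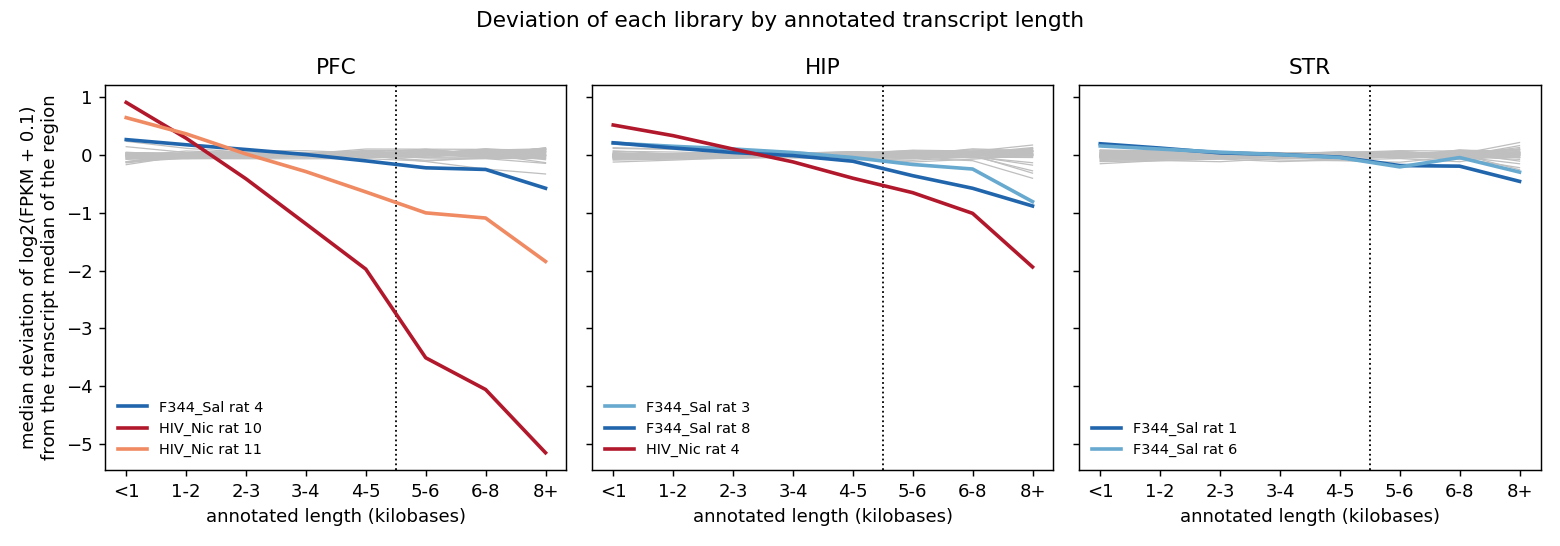
Median deviation of log2(FPKM + 0.1) of each library from the median of its region (y axis) by class of annotated length (x axis, kilobases), with the dotted line at 5000 bases. Coloured lines mark the libraries with the lowest level of long transcripts, such as PFC HIV_Nic rat 10, which falls from 0.91 to -5.15, and grey lines the others.

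The question of how regions differ was asked only of the 428 transcripts that were members in all 3, since a member of 1 region was chosen on its level there. The 3 regions were punched from each brain, but the labels do not tie the samples of a rat together, so that the fit treated samples that share rats as independent. This limma fit of all 144 samples was made for 11900 transcripts, and a difference was called at an adjusted p under 0.05 and a fold change over 2. In the STR against the PFC, 31 of the 428 were higher and 20 lower (11.9%), where over all transcripts tested 6.11% were higher and 4.33% lower. In the HIP against the PFC, 24 were higher and 17 lower (9.58%), against 4.5% and 3.47% of all. In the STR against the HIP, 27 were higher and 18 lower (10.51%), against 5.21% and 4.29% of all. At any fold change, 129, 106, and 126 of the 428 passed the adjusted threshold (30.1%, 24.8%, and 29.4%), against 42.5%, 35.7%, and 35.5% of all transcripts tested. With F344_Sal samples alone the shares called were 5.37%, 2.57%, and 5.61%, against 7.34%, 4.87%, and 6.31% of all transcripts. With a pseudocount of 1 they were 7.01%, 4.44%, and 6.78%, against 5.34%, 3.60%, and 5.32% of all. Without the 4 libraries nearest to another region, the 3 comparisons gave 32 higher and 22 lower, 24 and 18, and 32 and 23, which were 12.6%, 9.81%, and 12.85% of the members, against 10.9%, 8.30%, and 10.86% of all.

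Differences were smaller on gene sums, where 401 genes of these transcripts were tested and 18 were higher and 8 lower in the STR than in the PFC, 9 and 6 in the HIP against the PFC, and 18 and 16 in the STR against the HIP. These were 6.48%, 3.74%, and 8.48% of the genes, where 10.6%, 8.11%, and 10.3% of the 15097 genes tested were called. Of the long transcripts called, the gene sum was called in the same direction for 20 of 51, 7 of 41, and 21 of 45. At any fold change, it passed the adjusted threshold in the same direction for 40, 27, and 36 of them. In all, 58.4%, 54.1%, and 60.1% of the gene sums passed the adjusted threshold at some fold change, against 56.8%, 49.6%, and 52.3% of all genes tested. The median absolute log2 difference was 0.34, 0.31, and 0.35 on transcripts and 0.21, 0.20, and 0.22 on gene sums.

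Some of the largest differences were of like size on the gene sum. ENSRNOT00000021162 had 3.19 to 16.5 FPKM in the PFC (median 12.8), 0.707 to 8.96 in the HIP (median 2.42), and 2.00 to 12.9 in the STR (median 8.23). It was lower in the HIP than in the PFC, with a log2 difference of -2.26 (SE 0.09, limma adjusted p = 6.57e-48) and of -2.18 on the gene sum. Apart from the 2 HIP libraries nearest to the STR, the highest HIP rat (3.20) was level with the lowest PFC rat. ENSRNOT00000038207 had medians of 13.7, 27.2, and 4.77 FPKM in the PFC, HIP, and STR. It was lower in the STR than in the HIP by a log2 difference of -2.40 (SE 0.12, adjusted p = 1.11e-39), and by -2.60 without the 4 libraries.

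ENSRNOT00000031977 (5032 bases) was lowest in the PFC and highest in the STR by its medians, with 0 to 31.4 FPKM in the PFC (median 6.68), 2.24 to 41.1 in the HIP (median 16.0), and 0 to 66.1 in the STR (median 32.1). The log2 difference between STR and PFC was 2.12 (SE 0.24, adjusted p = 6.98e-14), and 2.11 on the gene sum. ENSRNOT00000043626 (7871 bases) had medians of 3.62, 16.6, and 10.2 FPKM in the PFC, HIP, and STR, and its HIP minus PFC difference was 2.33 (SE 0.32, adjusted p = 2.77e-10), with 2.15 on the gene sum. ENSRNOT00000066096 (7539 bases), with medians of 5.44, 9.99, and 1.19 FPKM, had the largest difference, a log2 difference of -3.66 (SE 0.35, adjusted p = 1.09e-17) between STR and HIP. It was listed at 0 in 17 STR rats and 1 HIP rat, and the gene sum differed by -1.35. The ranges of these 3 transcripts overlapped between regions.

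Other large differences were not found on the gene sum. The gene ENSRNOG00000003195 had 2 long members that differed in opposite directions. ENSRNOT00000004486 (5854 bases) was higher in the STR, with a median of 24.2 FPKM against 13.6 in the PFC and a log2 difference of 2.69 (SE 0.61, adjusted p = 9.97e-05). ENSRNOT00000043951 (5641 bases) was lower in the STR, with 13.8 FPKM against 24.003 and a log2 difference of -2.26 (SE 0.41, adjusted p = 1.28e-06). The former was at 0 in 18 PFC and 3 STR rats, and the latter in 1 PFC and 12 STR rats. The gene sum had medians of 43.6 FPKM (PFC), 46.4 (HIP), and 41.3 (STR) and a log2 difference of 0.14 (adjusted p = 0.440). Likewise, ENSRNOT00000017496 (6641 bases) was higher in the STR than in the HIP, with medians of 3.76 and 1.08 FPKM and a log2 difference of 2.44 (SE 0.37, adjusted p = 8.22e-09), while its gene sum differed by 0.09.

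In each region a limma fit of the 48 samples compared the groups on log2(FPKM + 0.1). All members entered it. The threshold of the study was used for calls, namely a fold change over 1.2 with p under 0.05, here the limma p before adjustment. The study took p from an ANOVA with Tukey-Kramer tests, after values near 0 and outliers had been removed. The number after Benjamini-Hochberg adjustment over all transcripts tested is given beside the calls. The strain difference and the response to nicotine in HIV-1Tg rats share the HIV_Sal rats, and the strain difference and the response in F344 rats share the F344_Sal rats, so that these comparisons are not independent. A transcript that a group had lost could not be a member. Of the 19 changes of single transcripts named below, 18 could be fitted with values near 0 and outlying values removed. The log2 difference was then nearer to 0 for 17 of them, 3 of which had the other sign, and farther from 0 for ENSRNOT00000011380. Without the libraries nearest to another region, the changes named in the HIP and STR kept their direction, and those of ENSRNOT00000045519 and ENSRNOT00000064025 did not pass the threshold.

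Between saline-treated strains, called long transcripts were mostly higher in HIV_Sal than in F344_Sal rats. In the PFC, 17 of 544 were called higher and 6 lower (4.23%), where 1.47% of the 13609 transcripts tested were called higher and 2.68% lower. In the HIP, 31 of 535 were higher and 4 lower (6.54%), against 2.11% and 2.47% of 14037. In the STR, 23 of 537 were higher and 4 lower (5.03%), against 2.47% and 3.79% of 13967. The median log2 difference of the long transcripts was 0.09, 0.15, and 0.09, beside -0.04, -0.01, and -0.04 over all transcripts tested. After adjustment limma gave 0 long transcripts in each region, where 23, 37, and 28 reached p under 0.05 before adjustment, and 0.022%, 0.057%, and 0.0573% of all transcripts passed. With values near 0 and outlying values removed, 2, 4, and 9 members passed, where 0.243%, 0.414%, and 1.33% of all did.

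The level of long against shorter transcripts in a library is taken from the same values as these differences and is no separate evidence on them. F344_Sal had the lowest median level of long against shorter transcripts in each region, -0.36 against -0.29 in HIV_Sal in the PFC, -0.32 against -0.27 in the HIP, and -0.32 against -0.21 in the STR. A difference between strains and one between libraries cannot be told apart by it. In the PFC, 31 were higher and 9 lower (7.35%) without HIV_Nic rats 10 and 11, which enter this comparison only through the shared estimate of the spread, where 5.11% of all transcripts were called. Without HIP F344_Sal rats 3 and 8 and HIV_Nic rat 4, the HIP had 18 higher and 4 lower (4.11%), against 4.19% of all, and without STR F344_Sal rats 1 and 6 the STR had 16 and 7 (4.28%), against 5.75% of all. Without the libraries nearest to another region, the HIP had 25 higher and 4 lower (5.42%, against 4.94% of all) and the STR 28 and 5 (6.15%, against 6.74%). Of the members of 7000 bases or more, 7 were called higher and 2 lower in the PFC (5.39%), 13 and 0 in the HIP (7.39%), and 15 and 0 in the STR (9.20%), against 4.15%, 4.58%, and 6.26% of all transcripts of any length. On gene sums 6 genes were higher and 5 lower in the PFC (2.20%), 7 and 3 in the HIP (2.04%), and 10 and 3 in the STR (2.64%), against 3.31%, 3.15%, and 4.74% of all genes tested.

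The largest strain difference was that of ENSRNOT00000065895 (7630 bases) in the STR. It had 0 to 51.4 FPKM in F344_Sal rats, with a median of 13.0 and 5 rats at 0, and 16.1 to 69.3 in HIV_Sal rats, with a median of 33.2 and none at 0. The groups overlapped, and the log2 difference was 3.80 (SE 1.14, unadjusted p = 0.00178, limma adjusted p = 0.290). Its gene sum had medians of 53.0 and 58.7 FPKM and differed by 0.10. Without STR F344_Sal rats 1 and 6, which were lowest in long transcripts there, the difference was 2.86 (unadjusted p = 0.0153).

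In the PFC, ENSRNOT00000055970 (5869 bases) had 0 to 15.7 FPKM in F344_Sal (median 7.05, 5 rats at 0) and 3.83 to 23.4 in HIV_Sal rats (median 11.6), a log2 difference of 2.87 (SE 1.12, unadjusted p = 0.0137). ENSRNOT00000022027 (5231 bases) had 3.79 to 16.1 FPKM in F344_Sal (median 6.75) and 0 to 9.10 in HIV_Sal rats (median 2.49, 6 rats at 0), a log2 difference of -3.16 (SE 1.01, unadjusted p = 0.00294). For both, the rats at 0 were all in the lower group, and the gene sums differed by 0.11 and 0.10.

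In the HIP, ENSRNOT00000015506 (10295 bases) had 0 to 5.62 FPKM in F344_Sal (median 1.47, 4 rats at 0) and 0 to 6.36 in HIV_Sal rats (median 5.45, 1 rat at 0), a log2 difference of 2.19 (SE 0.89, unadjusted p = 0.0180). Its gene sum was higher too, by 0.27 (SE 0.10, unadjusted p = 0.0110). ENSRNOT00000040334 (6800 bases) had the largest difference in the other direction, -1.88 (SE 0.91, unadjusted p = 0.0454), with medians of 5.09 FPKM in F344_Sal and 2.40 in HIV_Sal rats and 1 and 5 rats at 0, while its gene sum differed by 0.52. Without any 1 of 14 libraries this call was lost, at -1.84 to -1.59. In the STR, ENSRNOT00000068017 (5822 bases) had 2.27 to 6.99 FPKM in F344_Sal (median 5.29) and 0 to 5.88 in HIV_Sal rats (median 3.41, 4 rats at 0), a log2 difference of -2.10 (SE 0.80, unadjusted p = 0.0115) with -0.02 on the gene sum.

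In HIV-1Tg rats, nicotine went with lower values of long transcripts in the PFC, and this rested on the libraries of rats 10 and 11. In the PFC, 2 of 544 long transcripts were called higher and 56 lower in HIV_Nic than in HIV_Sal rats (10.7%), where 3.26% of all transcripts were called higher and 3.49% lower. The median log2 difference was -0.36 over long transcripts and 0.01 over all. Without rat 10 there were 4 higher and 20 lower (4.41%), without rat 11 2 and 29 (5.70%), and without both 10 and 10 (3.68%), against 4.21% of all. On gene sums with all rats, 4 genes of long transcripts were higher and 50 lower (10.8%), against 7.30% of all genes. In the HIP, 5 of 535 were higher and 23 lower (5.23%), against 2.96% and 1.84% of all, and without HIV_Nic rat 4, the library lowest in long transcripts there, 7 were higher and 10 lower (3.18%), against 4.02% of all. In the STR, where no library stood apart in this way, 12 of 537 were higher and 15 lower (5.03%), against 2.5% and 4.32% of all.

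After adjustment limma gave 0 long transcripts in each region in this comparison, where 59, 28, and 29 reached p under 0.05 before adjustment. With values near 0 and outlying values removed, 4 PFC, 0 HIP, and 8 STR members passed, where 0.205%, 0.111%, and 1.84% of all did. Of all transcripts tested, 0% (PFC), 0% (HIP), and 0.308% (STR) passed. Without the libraries nearest to another region, the HIP had 2 higher and 21 lower (4.30%, against 4.79% of all) and the STR 10 and 16 (4.84%, against 6.88%).

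**Figure D5:**
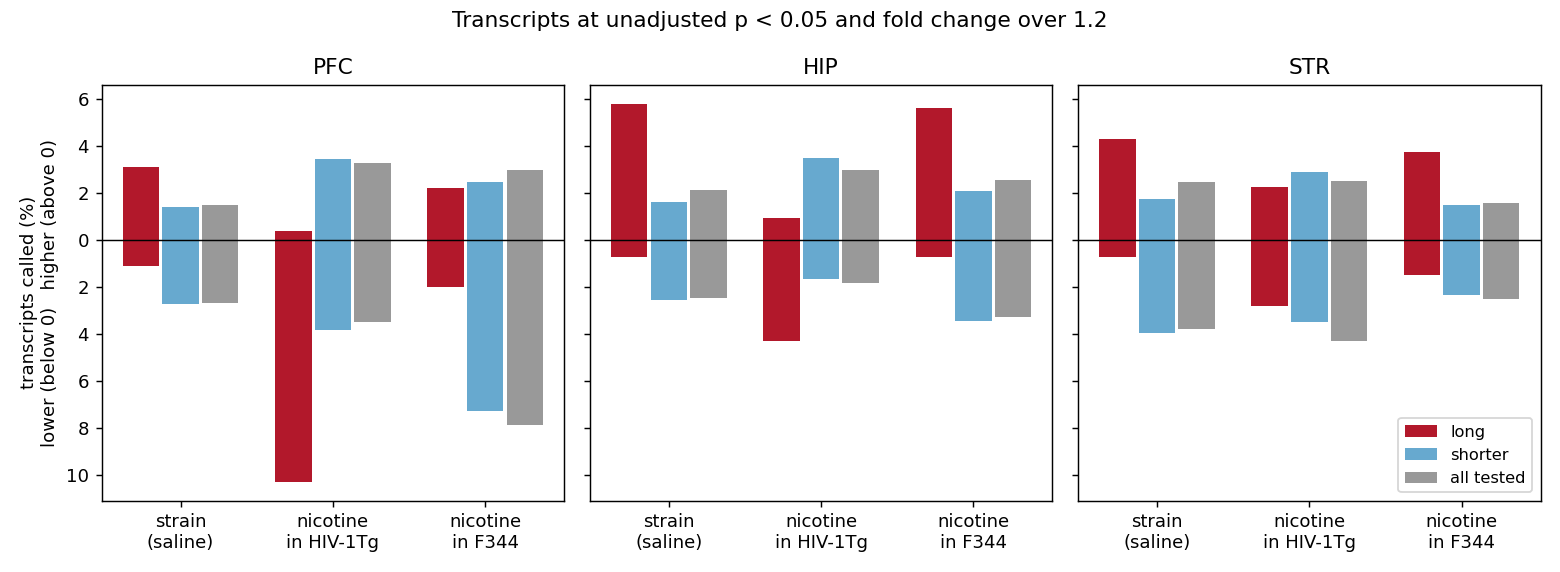
Share of transcripts (y axis, %) called higher (above 0) or lower (below 0) at the threshold of the study, for 3 comparisons in each region (x axis), in long, shorter, and all tested transcripts. The tallest bar is that of the long transcripts lower in the PFC of HIV_Nic than of HIV_Sal rats, 56 of 544, which became 10 without HIV_Nic rats 10 and 11.

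Among single transcripts of the PFC, ENSRNOT00000030500 (7553 bases) had 14.8 to 47.3 FPKM in HIV_Sal rats (median 36.2) and 0 to 74.4 in HIV_Nic rats (median 22.9, 5 rats at 0). Its log2 difference was -3.34 (SE 1.27, unadjusted p = 0.0116) and -3.14 without rats 10 and 11, while the gene sum differed by -0.19. With values near 0 and outlying values removed, its log2 difference was -0.0. ENSRNOT00000066581 (6108 bases) had 0 to 2.42 FPKM in HIV_Sal (median 1.97, 2 rats at 0) and 1.55 to 2.69 in HIV_Nic rats (median 2.18), a log2 difference of 0.91 (SE 0.37, unadjusted p = 0.0188) that was 0.58 and past the threshold no longer without HIV_Sal rat 9 or 12. The ranges of the 2 groups overlapped, and the difference was -0.13 on the gene sum and 0.12 with values near 0 and outlying values removed.

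In the HIP, ENSRNOT00000043410 (6399 bases) had 3.68 to 38.9 FPKM in HIV_Sal rats (median 15.9) and 0 to 26.1 in HIV_Nic rats (median 3.59, 4 rats at 0), a log2 difference of -2.78 (SE 0.86, unadjusted p = 0.00226) with -0.21 on the gene sum. ENSRNOT00000045519 (7385 bases) had 0 to 22.5 FPKM (median 14.6, 3 rats at 0) and 9.18 to 24.4 (median 15.1), a log2 difference of 1.71 (SE 0.80, unadjusted p = 0.0393) that was 1.203 (unadjusted p = 0.0559) without the libraries nearest to another region. The difference had the other sign on the gene sum (-0.03) and with values near 0 and outlying values removed (-0.14), and the call was lost without any 1 of 6 libraries.

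In the STR, ENSRNOT00000047225 (6009 bases) had 0 to 3.59 FPKM in HIV_Sal rats (median 2.78, 5 rats at 0) and 2.74 to 3.44 in HIV_Nic rats (median 3.14). Its log2 difference was 2.08 (SE 0.70, unadjusted p = 0.00501, adjusted p = 0.303) and was the same on the gene sum, but it was -0.01 with values near 0 and outlying values removed. ENSRNOT00000064025 (9759 bases) had medians of 51.9 and 14.1 FPKM with 1 and 5 rats at 0, and a log2 difference of -3.02 (SE 1.42, unadjusted p = 0.0387), which was -2.94 (unadjusted p = 0.0534) without the libraries nearest to another region, whereas its gene sum was higher by 0.25 (SE 0.11, unadjusted p = 0.0242). Leaving out any 1 of 14 libraries ended the call, with differences from -2.93 to -2.57.

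In F344 rats, the counts of long transcripts called for nicotine changed with the libraries kept, and the regions were not tested against each other. In the PFC, 12 of 544 were called higher and 11 lower in F344_Nic than in F344_Sal rats (4.23%), where 2.96% of all transcripts were called higher and 7.9% lower. With each sample scaled to the same median these were 16 and 7, and without HIV_Nic rats 10 and 11 24 and 12 (6.62%), where 3.46% of all were higher and 8.30% lower. In the HIP, 30 of 535 were higher and 4 lower (6.36%), against 2.55% and 3.26% of all. The HIP count was 16 higher and 6 lower (4.11%) without F344_Sal rat 8, which was low in long transcripts, and the same without F344_Sal rat 3 and HIV_Nic rat 4 as well, where 5.26% of all were called. Without HIV_Nic rat 4 alone it was 37 and 4 (7.66%), against 6.04% of all. In the STR, 20 of 537 were higher and 8 lower (5.21%), against 1.59% and 2.51% of all. Without the libraries nearest to another region, the HIP had 25 and 6 (5.79%, against 5.44% of all) and the STR 22 and 7 (5.40%, against 4.58%).

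In the PFC, 2 of 544 long transcripts (0.368%) were past the adjusted threshold in this comparison, against 5.36% of all transcripts tested and 4.42% of the shorter ones. In the HIP and STR limma gave 0 long transcripts, where 35 and 29 reached p under 0.05 before adjustment, and 0.00712% and 0.00716% of all passed. With values near 0 and outlying values removed, 17 PFC and 3 HIP members passed, where 10.4% and 0.695% of all did. ENSRNOT00000011380 (6554 bases) had 2.60 to 20.1 FPKM in F344_Sal rats (median 15.1) and 0.855 to 16.9 in F344_Nic rats (median 5.22). No rat was at 0 and the groups overlapped, and the log2 difference was -1.54 (SE 0.42, limma adjusted p = 0.0160). Its gene sum, with medians of 18.5 and 21.0 FPKM, differed by 0.14.

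ENSRNOT00000028654 (6407 bases), 1 of 9 isoforms, had 4.36 to 35.5 FPKM in F344_Sal rats (median 23.6) and 0 to 36.1 in F344_Nic rats (median 10.04, 5 rats at 0), a log2 difference of -3.14 (SE 0.96, adjusted p = 0.0382). The call was lost without any 1 of 14 libraries, F344_Nic rats 2, 5, 7, 9, and 12 and F344_Sal rats 1, 3, 4, 5, 6, 7, 9, 11, and 12, with log2 differences from -3.13 to -2.74. Its gene sum differed by 0.16, and with values near 0 and outlying values removed the transcript differed by -0.06. In the STR the same transcript had medians of 13.8 and 12.3 FPKM with 1 and 5 rats at 0 and a log2 difference of -2.31 (SE 0.98, unadjusted p = 0.0228). That call was lost without any 1 of F344_Nic rats 7, 8, 9, 10, and 12 (-1.92), and the difference was 0.26 with values near 0 and outlying values removed.

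Among the higher ones, ENSRNOT00000001133 (6486 bases) of the PFC had 0 to 38.8 FPKM in F344_Sal (median 7.23, 6 rats at 0) and 0 to 42.3 in F344_Nic rats (median 31.0, 1 rat at 0), a log2 difference of 3.39 (SE 1.61, unadjusted p = 0.0412) with 0.09 on the gene sum. The call was lost without any 1 of 15 libraries, with log2 differences from 3.02 to 3.35. In the HIP, ENSRNOT00000013017 (9266 bases) had 0 to 17.4 FPKM (median 0.526, 6 rats at 0) and 0 to 23.2 (median 15.3, 1 rat at 0), a log2 difference of 3.54 (SE 1.24, unadjusted p = 0.00647) with 0.16 on the gene sum. Of the lower ones there, ENSRNOT00000016740 (5928 bases) had 1.17 to 12.5 FPKM (median 9.26) and 0 to 9.82 (median 4.14, 5 rats at 0), a log2 difference of -2.74 (SE 1.09, unadjusted p = 0.0158) with -0.14 on the gene sum. In the STR, ENSRNOT00000065895, named above for its strain difference, had 12.6 to 62.9 FPKM in F344_Nic rats (median 40.5), against the same F344_Sal rats with 5 at 0, a log2 difference of 3.79 (SE 1.14, unadjusted p = 0.00183, adjusted p = 0.986).

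Whether nicotine acted differently in the strains was tested as the interaction. In the PFC, the response of HIV-1Tg rats minus that of F344 rats was called higher for 1 and lower for 43 of 544 long transcripts (8.09%), against 7.88% and 3.14% of all. Without HIV_Nic rats 10 and 11 it was higher for 10 and lower for 18 (5.15%), against 7.30% and 2.93% of all. In the HIP it was higher for 3 and lower for 37 of 535 (7.48%), against 4.52% and 2.21%, and without F344_Sal rats 3 and 8 and HIV_Nic rat 4 higher for 5 and lower for 18 (4.30%), against 4.32% of all in total. In the STR it was higher for 7 and lower for 9 of 537 (2.98%), against 2.34% and 2.16%, and 4 and 11 with each sample scaled to the same median. Without the libraries nearest to another region, the HIP had 4 and 34 (7.10%, against 7.06% of all) and the STR 7 and 16 (4.28%, against 4.82%). After adjustment limma gave 0 long transcripts in each region, where 44, 40, and 16 reached p under 0.05 before adjustment, and 3.87%, 0%, and 0% of all passed. With values near 0 and outlying values removed, 14 of 530 PFC and 2 of 519 HIP members passed the adjusted threshold for the interaction. Of all transcripts, 8.14% and 0.399% did. On gene sums 2 of 500 genes in the PFC passed, and the share over all genes was not computed.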

How the data were processed

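Bowtie (1.04 per the labels) and TopHat were used by the authors to place read pairs on the rat assembly Rn4, and the deposited tables, with Ensembl annotation, hold the FPKM that Cufflinks gave each transcript in each sample, packed with its confidence limits, coverage, and length. FPKM already includes division by length and by mapped fragments. The deposited length varied between rats where Cufflinks had assembled its own model, so the annotated length was used. It gave 544, 535, and 537 members (PFC, HIP, STR). With the median deposited length over rats there would have been 1258, 1256, and 1264. With the deposited length at 5000 or more in every rat there would have been 607, 654, and 667. Of the transcripts that passed the FPKM rule, 1291, 1417, and 1465 (PFC, HIP, STR) showed no annotated length and were left out. The annotated length was read from values in which the annotated model was used, and those left out had no such value in any rat. Levels, zeros, and spreads thus hold only for transcripts with such a value. In the median library, long transcripts held 3.55%, 3.41%, and 3.25% of the FPKM summed over all that passed. Shorter ones held 78.5%, 76.5%, and 76.4%, and the rest lay in those left out. The 144 columns were mapped by their titles, with 0 sample columns unused.

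From these values, log2(FPKM + 0.1) was fitted with limma 3.58.1 (trended prior) in R 4.3.3, with 4 groups per region, or 12 groups for region differences, and Python 3.11.15 was used for tables and figures. Transcripts entered the fit when 6 or more of the 12 rats in every group exceeded 0.01 FPKM, and missing values were left out. The ANOVA described by the authors lists strain and sex as its factors, and here strain and drug were used, all rats being male. The fit was tested on simulated data with 200 changed transcripts. The named transcripts are the most abundant, longest, steadiest, and most variable, those past the adjusted threshold, and the largest changes in each direction, of which the first are given. The gene lists and marker lists of the plan could not be applied, since identifiers are not paired with names, and labelled regions were therefore checked only by the likeness of libraries. The members and lists were chosen with earlier results of these data known. The alternatives, among them removal of libraries, were partly added after seeing the data, which holds for the gene sums, the single libraries, the libraries low in long transcripts, and those nearest to another region.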

Additional observations from a re-analysis of the deposited data

How the results depend on the processing

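Same-numbered rats of 2 groups of a region are different animals, so their correlations cannot show samples of the same rat. Those of their deviations ran from -0.07 to 0.10, with none of the 12 pairs above 0.1 in any pair of groups. Between regions, same-numbered samples of a strain and drug group had median correlations from -0.013 to 0.023, also with none above 0.1. The lowest were -0.27 in F344_Sal and -0.26 in HIV_Sal, both between HIP and STR. With the replicate number as a block, 10.7% of long transcripts called in HIV_Nic against HIV_Sal rats in the PFC became 9.93%, the region differences became 12.1%, 9.35%, and 9.81%, and no count moved by over 1.5 times. The largest changes came from removing values near 0 and beyond 1.5 interquartile ranges. The share called then rose to 10.6%, 17.7%, and 15.1% in the PFC, HIP, and STR for the strain difference, with 2, 4, and 9 past the adjusted threshold, and that of all transcripts to 9.59%, 10.8%, and 12.4%. For nicotine in HIV-1Tg rats PFC, HIP, and STR shares were 14.7%, 11%, and 11.8%, against 10.6%, 9.97%, and 12.7% of all. In the PFC 17 members were higher and 61 lower. After adjustment 4 passed in the PFC and 8 in the STR, against 0.205% and 1.845% of all. For nicotine in F344 rats the share was 10.8%, 14.8%, and 12.0%, against 17.5%, 11.8%, and 9.23% of all. After adjustment 17 and 3 passed in the PFC and HIP, against 10.4% and 0.695% of all. For the interaction the share was 13.8%, 15.8%, and 12.4%, against 18.6%, 13.7%, and 10.6% of all. After adjustment 14 and 2 passed in the PFC and HIP, against 8.14% and 0.399% of all.

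In the PFC, sample weights gave 6.43% for the strain difference and 4.60% for nicotine in HIV-1Tg rats. A fit of only the 24 samples compared gave 5.88% for the latter. The shares of all transcripts under these settings were not computed. Without HIV_Nic rats 10 and 11 the PFC had 7.35% for the strain difference, against 5.11% of all transcripts. Nicotine in HIV-1Tg and F344 rats then gave 3.68% and 6.62%, against 4.21% and 11.8% of all. The interaction gave 5.15%, against 10.2% of all. Without F344_Sal rat 4 as well, nicotine gave 3.31% and 6.43%, against 4.225% and 11.6% of all. In the HIP, nicotine in HIV-1Tg rats gave 3.18% without HIV_Nic rat 4, against 4.02% of all. Without F344_Sal rats 3 and 8 as well, 4.11% were called for the strain difference, against 4.19% of all. Nicotine in F344 rats then gave 4.11%, against 5.26% of all, and the interaction 4.30%, against 4.32% of all. Gene sums gave 2.20%, 2.04%, and 2.64% for strain, against 3.31%, 3.15%, and 4.74% of all genes. For nicotine in F344 rats they gave 2.60%, 3.07%, and 2.03%, against 8.67%, 4.70%, and 3.20% of all genes. For STR and HIP against PFC they gave 6.48% and 3.74%, against 10.6% and 8.11% of all genes. On gene sums 0 genes were past the adjusted threshold for nicotine in F344 rats in the PFC and 2 for the interaction. The 2 adjusted transcripts of the PFC were 1 with a pseudocount of 1 and 1 with no filter. They were 5 of 1036 with a length limit of 4000 and 0 of 167 with 7000, against 5.36% of all transcripts. The adjusted interaction gave 3 of 1036 with a limit of 4000 and 2 of 1258 with the median length over rats. Of all transcripts, 3.87% passed for the interaction. A limit of 7000 bases gave 9.20% for strain and 4.91% for the interaction in the STR. Region differences are given in the order STR against PFC, HIP against PFC, and STR against HIP. A pseudocount of 1 gave 7.01%, 4.44%, and 6.78%, against 5.34%, 3.60%, and 5.32% of all. F344_Sal samples alone gave 5.37%, 2.57%, and 5.61%, against 7.345%, 4.87%, and 6.31% of all.

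With each of the 48 libraries of a region left out in turn, the share called for nicotine in HIV-1Tg rats ranged from 4.41% to 13.6% in the PFC and from 3.18% to 5.61% in the HIP, that for nicotine in F344 rats from 4.11% to 7.66% in the HIP, and that for the PFC interaction from 5.15% to 9.74%. The adjusted number for nicotine in F344 rats in the PFC ranged from 1 to 3, with 1 left without any 1 of F344_Nic rats 2, 5, 7, 9, and 12 and F344_Sal rats 1, 3, 4, 5, 7, 9, and 11, and that for the PFC interaction from 0 to 1 (without HIV_Nic rat 3). The ratio of the median SD of long to shorter transcripts, 1.40, 1.44, and 1.38, became 1.16, 1.23, and 1.19 on the coefficient of variation and 1.33 in the PFC without HIV_Nic rats 10 and 11, and reversed to 0.814, 0.748, and 0.735 on gene sums. Among the named transcripts, log2 differences reversed on gene sums for ENSRNOT00000022027 (0.10), ENSRNOT00000066581 (-0.13), ENSRNOT00000011380 (0.14), and ENSRNOT00000028654 (0.16) in the PFC, ENSRNOT00000040334 (0.52) and ENSRNOT00000045519 (-0.03) in the HIP, and ENSRNOT00000064025 (0.25) in the STR. With outliers removed they reversed for ENSRNOT00000045519 (-0.14) in the HIP and ENSRNOT00000047225 (-0.01) and ENSRNOT00000028654 (0.26) in the STR. The cause of these changes was not tested.

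Calls at the unadjusted threshold were lost without any 1 of 15 libraries for ENSRNOT00000001133 in the PFC (log2 difference from 3.02 to 3.35), of 14 for ENSRNOT00000040334 in the HIP (-1.84 to -1.59), of 14 for ENSRNOT00000064025 in the STR (-2.93 to -2.57), of 6 for ENSRNOT00000045519 in the HIP (1.2 to 1.66), and of 5 for ENSRNOT00000028654 in the STR (-1.92). Read numbers per sample were not given in the sources used here, so how far depth limits these values was not tested.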

Other observations

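Cufflinks had assembled its own model for the long transcripts in 52.9%, 52.0%, and 49.96% of the values in the PFC, HIP, and STR, and in the others the annotated model was used. The assembled models were close in length to the annotation, with a median ratio of 1.03, 1.02, and 1.02, whereas for shorter transcripts it was 1.0996, 1.1011, and 1.0963. A transcript with an assembled model in all 48 rats of a region usually showed no annotated length and so could not be a member. Of the long transcripts, 25, 24, and 30 had an assembled model in none of the rats. The confidence interval that Cufflinks gave was narrower for long transcripts, with a median width relative to FPKM of 0.240, 0.284, and 0.279, against 0.302, 0.360, and 0.337 for shorter ones, although their spread between rats was wider. By the median over rats, the long transcript was the isoform with the highest value of its gene for 67.3%, 63.2%, and 64.4% of the members. For shorter transcripts the shares were higher, at 76.7%, 76.9%, and 77.1%.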
